A study of Mus musculus with 30 samples.

Results

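The comparison set 2 sorted progenitor populations of wild-type mouse bone marrow against each other, multipotent progenitor 2 (MPP2) and multipotent progenitor 4 (MPP4), by bulk RNA sequencing. Its members were the 3 WT MPP2 and 3 WT MPP4 libraries, taken by their labels, which made 6 of the 30 samples of the series and 6 of its 24 bulk libraries. The series was built around Mettl3, the catalytic subunit of the enzyme complex that writes N6-methyladenosine on RNA. WT mice were Mettl3 fl/fl and the labels list no Cre for them, and the Mettl3KO mice were conditional knockouts (Mx1-Cre; Mettl3 fl/fl). The knockout libraries are used below in the shared fit and to set the same contrast beside that of WT. All mice were sampled 3 weeks after pIpC, the inducer of Mx1-Cre, and the Mx1 promoter is not restricted to blood cells. The sort gate was Lin-;Sca1+;c-Kit+;CD150+;CD48+ for MPP2 and Lin-;Sca1+;c-Kit+;CD150-;CD48+ for MPP4, so the sorted populations were separated by CD150 alone. The labels put the 3 replicates of a population in 3 different mice.

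As background, multipotent progenitors leave the stem cell state with unequal lineage output. MPP2 gives rise mainly to megakaryocytes and erythroid cells, which make platelets and red cells. MPP4 is described as the lymphoid-primed population, which carries Flt3 and gives rise to early lymphoid cells. The MPP4 gate given above did not select on Flt3, so the sorted cells need not all carry it. The megakaryocyte and erythroid programme is driven by GATA, KLF and TAL1 factors. B lineage entry is marked by the pre-B receptor, a complex that includes immunoglobulin signalling chains and a surrogate light chain.

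The 6 libraries held 31543765 to 46177912 counts each, and the ribosomal RNA row Rn45s took 1.65% to 2.72% of them. Of 24063 rows, 15545 genes passed a filter on low counts and were tested with edgeR's quasi-likelihood test over all 24 bulk libraries, with p-values adjusted by the Benjamini-Hochberg method. Levels below are in CPM, the counts of a gene scaled to one fixed library total with TMM factors, and a gene was called at an adjusted p under 0.05. In the macrophage list MPP2 replicate 1 stood apart, at 6630 summed CPM against 310 and 1114 in the other MPP2 libraries, and results are given with and without single libraries below. In bulk libraries, fewer cells of a type and less RNA per cell cannot be told apart.

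The contrast called 14 genes, 0.0901% of those tested: 11 were higher in MPP2 (0.0708%) and 3 were higher in MPP4 (0.0193%). The genes higher in MPP2 were the megakaryocyte and platelet genes Pf4, Vwf and Gp5, the gate gene Slamf1, and Samd14, Mfsd2b, Tgm2, Gas2l1, Trim47, Cttn and a row named 8-Sep, whose name was turned into a date in the deposited table and whose identity was not resolved. Those higher in MPP4 were Cd79a, Vpreb1 and Mzb1, all genes of B lineage cells. At an unadjusted p under 0.05 there were 530 genes higher in MPP2 (3.41%) and 245 higher in MPP4 (1.58%), 4.99% of all genes in total. That total is about the share that would pass this threshold if no gene differed. The median log2 fold change over all genes was 0.02.

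**Figure D1:**
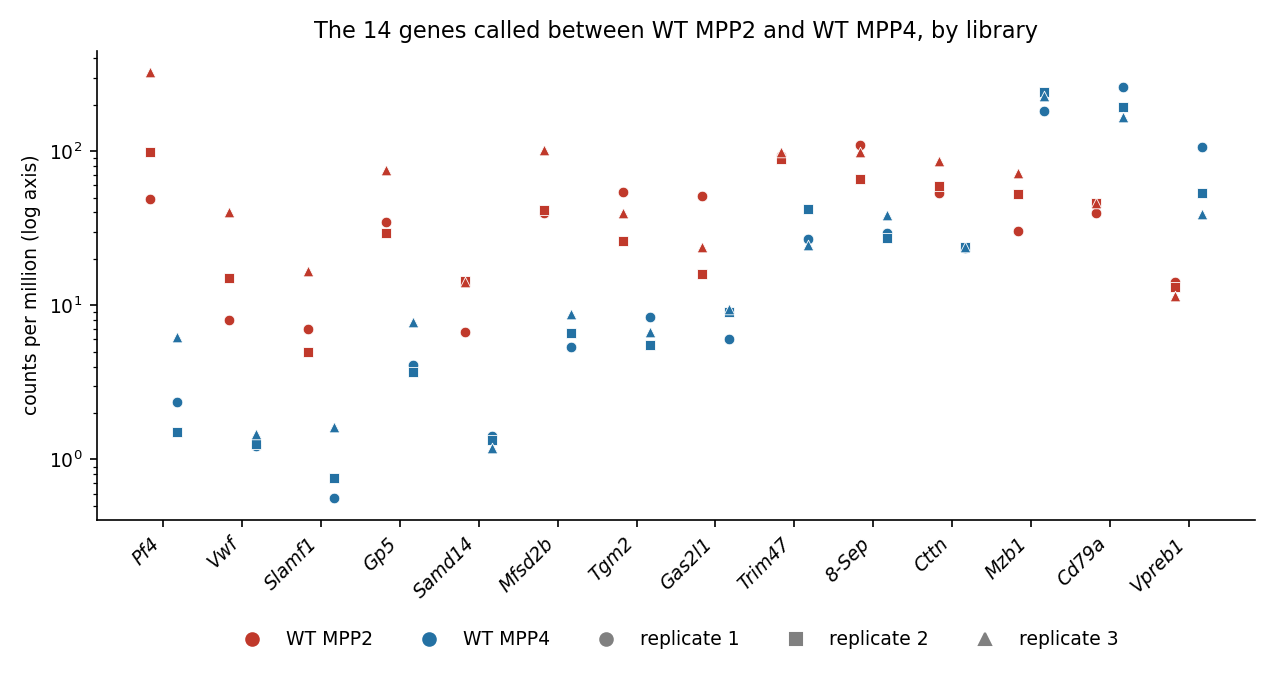
CPM (log axis) of the 14 called genes in each of the 3 WT MPP2 (red) and 3 WT MPP4 (blue) libraries, with the marker shape giving the replicate number. The 3 MPP2 libraries lie above all 3 MPP4 libraries in 11 genes and below them in Mzb1, Cd79a and Vpreb1.

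The gate genes were examined first, since they check the labels. Slamf1, which encodes CD150, stood at 7.07, 5.0 and 16.7 CPM in MPP2 replicates 1 to 3 and at 0.560, 0.764 and 1.62 CPM in MPP4. The groups did not overlap, and the log2 fold change was 3.30 ± 0.56 (SE, n = 3 and 3; edgeR adjusted p = 0.025). Cd48, carried by both gates, was at 180, 136 and 143 CPM in MPP2 and 225, 167 and 163 CPM in MPP4, with overlapping groups and a log2 fold change of -0.28. Kit (log2 fold change 0.42), Cd34 (-0.19) and the floxed gene Mettl3 (-0.01) did not pass either. Ly6a, which encodes Sca1, was at 494, 942 and 707 CPM in MPP2 and at 1065, 1811 and 1589 CPM in MPP4. Its log2 fold change was -1.06 ± 0.24 (SE) at an edgeR adjusted p of 0.18, so it was not called although the groups did not overlap, whereas a fit of only the 6 libraries with the replicate number as a block called it (edgeR adjusted p = 0.0080). That fit, chosen after seeing the data, called 0.803% of the genes it tested, whereas the same 6 libraries without the block gave 1 called gene. Kit and Ly6a held only even counts in every library. Flt3, the receptor that defines MPP4 in other sort schemes, was at 258, 415 and 211 CPM in MPP2 and 398, 413 and 413 CPM in MPP4, and these ranges overlapped.

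Megakaryocyte and platelet genes held the called members of the lineage lists on the MPP2 side. The list held 24 genes, of which 23 were tested, and 3 were called higher in MPP2 and none in MPP4, beside 0.0708% and 0.0193% of all genes. At an unadjusted p under 0.05 there were 16 of 23 higher in MPP2, beside 3.41% of all genes, and the median log2 fold change was 2.82, beside 0.02. The untested member, Gp6, had 81 counts over the MPP2 libraries and 0 over the MPP4 libraries. In 19 of the 23 genes the MPP2 libraries did not overlap the MPP4 libraries and were higher, beside 9.46% of all genes.

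Pf4, a chemokine stored in platelet granules, was at 49.0, 99.2 and 326 CPM in MPP2 and at 2.37, 1.5 and 6.23 CPM in MPP4. The lowest MPP2 library exceeded the highest MPP4 library, and the log2 fold change was 5.56 ± 0.86 (SE; edgeR adjusted p = 0.0092). Vwf, the adhesive protein that tethers platelets to damaged vessel walls, was at 7.97, 15.1 and 40.1 CPM in MPP2 and at 1.23, 1.25 and 1.46 CPM in MPP4. Every MPP2 library lay above all of MPP4, with a log2 fold change of 4.0 ± 0.74 (SE; edgeR adjusted p = 0.039). Gp5, a subunit of the platelet receptor for von Willebrand factor, was at 34.5, 29.6 and 75.6 CPM in MPP2 and at 4.11, 3.68 and 7.82 CPM in MPP4. Its groups were separate as well, at a log2 fold change of 3.17 ± 0.55 (SE; edgeR adjusted p = 0.028). In all 3 genes MPP2 replicate 3 was the highest library.

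Other platelet receptor subunits did not pass the 24-library test. Itga2b, the alpha chain of the fibrinogen receptor, was at 65.6, 92.0 and 212 CPM in MPP2 and at 17, 26.4 and 32.0 CPM in MPP4 (log2 fold change 2.30 ± 0.47 SE; edgeR adjusted p = 0.083). Its partner chain Itgb3 had a log2 fold change of 2.45, and the von Willebrand factor receptor subunits Gp1ba, Gp1bb and Gp9 had 3.49, 4.24 and 1.45. Treml1, a platelet granule receptor, was at 19, 29.7 and 100.5 CPM in MPP2 against 2.45, 0.191 and 0.133 CPM in MPP4 (log2 fold change 5.72; edgeR adjusted p = 0.076). Tubb1, the platelet tubulin, had no count in any MPP4 library and 0.116, 0.472 and 2.34 CPM in MPP2, which made it at least 34.0-fold higher in MPP2 against a floor of 3 counts over the MPP4 group. Tbxas1 and Ptgs1, the enzymes of thromboxane synthesis in platelets, were outside the list and were picked after their values were seen. They had log2 fold changes of 1.31 and 1.37 at edgeR adjusted p-values of 0.076 and 0.099. The 6-library fit with the replicate block called Itga2b (edgeR adjusted p = 0.011), Gp1bb (0.0024), Tbxas1 (0.030) and Ptgs1 (0.023), all higher in MPP2.

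**Figure D2:**
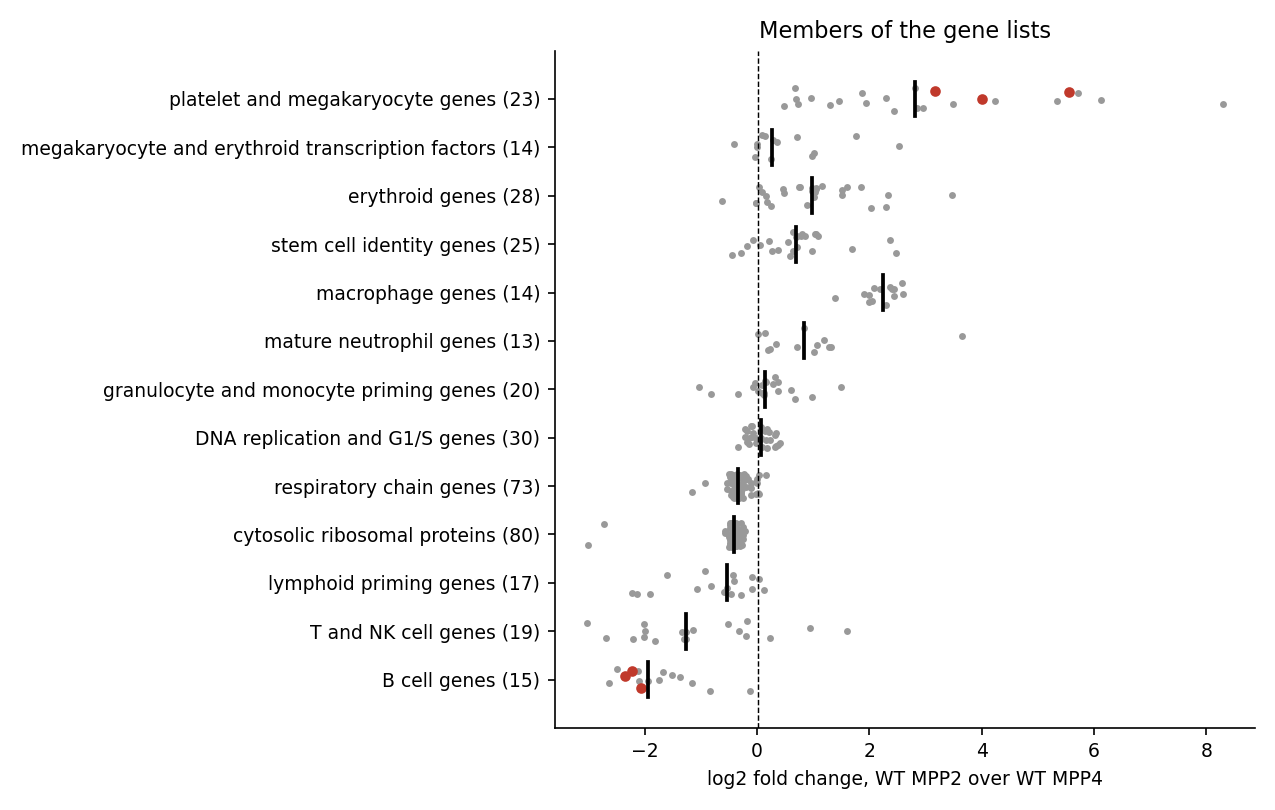
Log2 fold change of WT MPP2 over WT MPP4 (horizontal axis) for each tested member of 13 gene lists, with the number tested in brackets. Red points passed the test, black bars are list medians and the dashed line is the median of all genes, and the platelet list (median 2.82) and the B cell list (median -1.95) lie at the ends.

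The other genes called higher in MPP2 fell in no lineage list. Mfsd2b, the transporter through which red cells and platelets release sphingosine-1-phosphate, was at 39.7, 41.7 and 102 CPM in MPP2 and at 5.39, 6.66 and 8.72 CPM in MPP4. Its groups were separate, and the log2 fold change was 3.15 ± 0.46 (SE; edgeR adjusted p = 0.0065). Samd14, a GATA-regulated gene that supports Kit signalling in erythroid precursors, was at 6.74, 14.4 and 14.2 CPM in MPP2 and at 1.41, 1.34 and 1.19 CPM in MPP4. Its log2 fold change was 3.16 ± 0.45 (SE; edgeR adjusted p = 0.0064). Tgm2, a protein cross-linking transglutaminase, was at 54.2, 25.9 and 39.8 CPM against 8.35, 5.51 and 6.66 CPM (log2 fold change 2.55; edgeR adjusted p = 0.030). The cytoskeletal genes Cttn, which encodes the actin-binding protein cortactin, and Gas2l1, a linker of actin and microtubules, had log2 fold changes of 1.48 and 1.89, and the ubiquitin ligase gene Trim47 had 1.58. The row named 8-Sep had 1.53, and no group overlapped in any of these genes.

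These genes did not all follow one order across the WT populations. Trim47 was highest in the stem cell population (HSC), at 277 ± 64 CPM (SD, n = 3), followed by MPP1 at 136 ± 30, MPP2 at 93.4 ± 4.6 and MPP4 at 31.3 ± 9.5, and no neighbouring ranges overlapped. Tgm2 and Vwf also had their highest means in HSC, 142 ± 37 and 46.1 ± 10.7 CPM, but MPP2 and MPP1 overlapped for Tgm2 and MPP2 and HSC overlapped for Vwf. Pf4, Mfsd2b and Samd14 had their highest means in MPP2: HSC was at 61.0 ± 60.6, 26.4 ± 6.3 and 6.16 ± 1.88 CPM against 158 ± 147, 61.2 ± 35.5 and 11.8 ± 4.4 CPM in MPP2. The HSC and MPP2 ranges overlapped for Pf4 and Samd14 and did not for Mfsd2b. The summed platelet list was higher in HSC (2035 to 3069 CPM) than in 2 of the 3 MPP2 libraries (854 and 1147 CPM), and MPP2 replicate 3 was at 2165 CPM. MPP4 was the lowest of the 4 populations for the list, at 386 to 526 CPM.

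**Figure D3:**
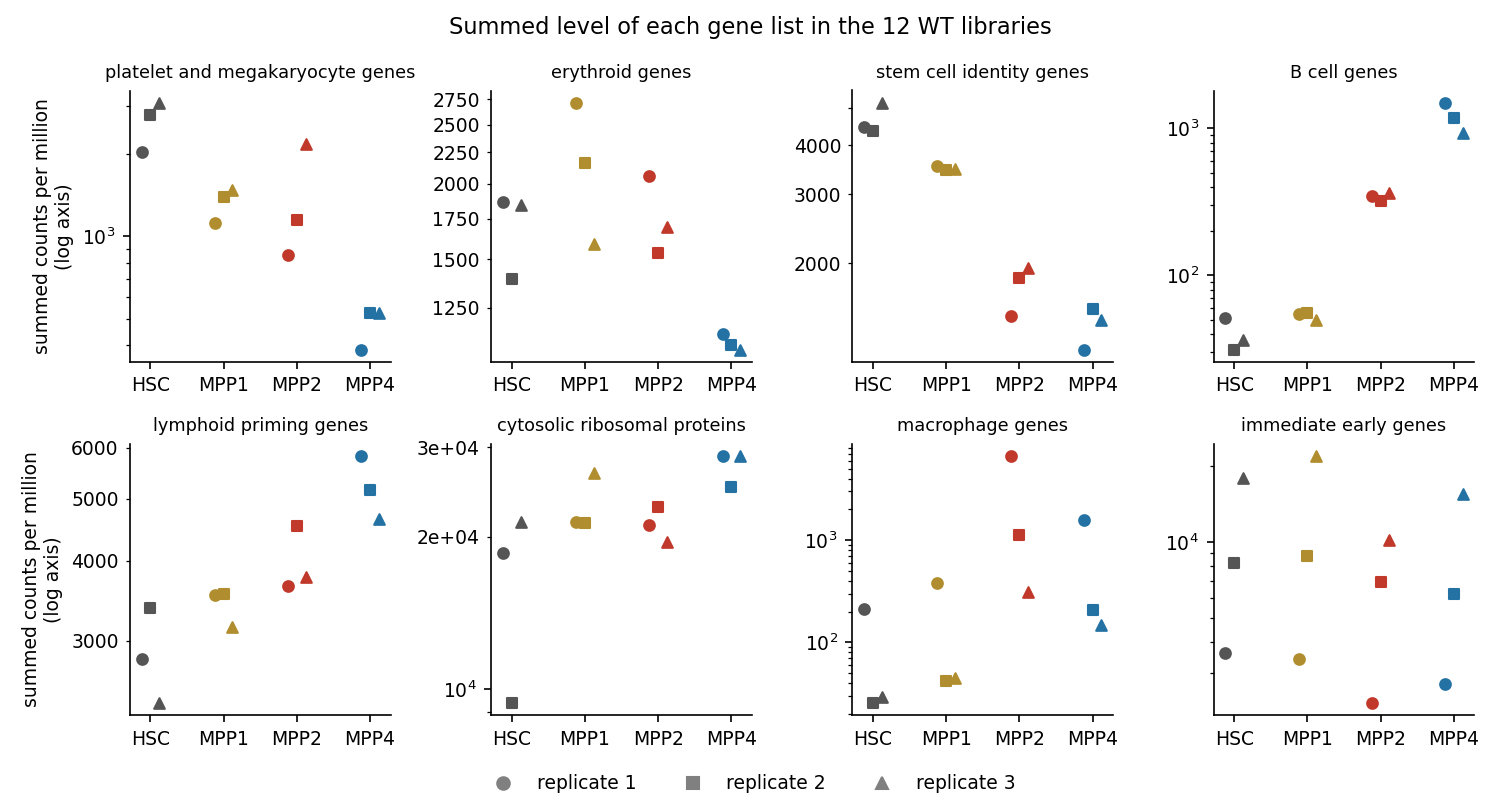
Summed CPM (log axis) of 8 gene lists in the 12 WT libraries, by population, with the marker shape giving the replicate number. MPP4 is the lowest population for platelet and erythroid genes and the highest for B cell genes, while macrophage and immediate early genes are spread by replicate number within each population.

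Transcription factors of the megakaryocyte and erythroid lineages held no called gene. None of the 14 was called by edgeR or DESeq2, 5 were higher in MPP2 at an unadjusted p under 0.05 beside 3.41% of all genes, and the median log2 fold change was 0.26. Gata1, the GATA factor of committed megakaryocyte and erythroid cells, was at 39.3, 33.3 and 61.2 CPM in MPP2 and at 10.8, 5.92 and 6.50 CPM in MPP4. That is a log2 fold change of 2.52 ± 0.81 (SE) with separate groups and an edgeR adjusted p of 0.68. Klf1, the erythroid KLF factor, was at 34.8, 32.1 and 28 CPM against 12.2, 8.70 and 7.26 CPM (log2 fold change 1.75). Gata2, expressed earlier, was at 137, 159 and 214 CPM against 68.5, 88.0 and 97.0 CPM (1.01). These 3 were called by the 6-library fit with the replicate block, at edgeR adjusted p-values of 0.021 for Gata1, 0.017 for Klf1 and 0.023 for Gata2. Tal1 (0.71) and Gfi1b (0.97) also had separate groups, while Runx1, Lmo2 and Ldb1 lay between -0.03 and -0.01.

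Of 28 erythroid genes edgeR called none and DESeq2 called 2, beside 0.534% of all genes by DESeq2, with 7 higher in MPP2 at an unadjusted p under 0.05, beside 3.41%, and a median log2 fold change of 0.97. Epor, the erythropoietin receptor, was at 32.8, 18.8 and 18.8 CPM in MPP2 and at 8.69, 3.60 and 1.72 CPM in MPP4 (log2 fold change 2.33; edgeR adjusted p = 0.49). Car1, a carbonic anhydrase of red cell precursors, was at 415, 265 and 361 CPM against 137, 102 and 106 CPM (1.60). Aqp1, the water channel of the red cell membrane, was at 30.4, 29.6 and 52.7 CPM against 8.35, 8.65 and 5.93 CPM (2.30). All 3 had separate groups and were called by the 6-library fit with the replicate block (edgeR adjusted p = 0.030 for Epor, 0.0053 for Car1 and 0.036 for Aqp1). Globin rows were low and overlapped: Hba-a1 was at 20.3, 3.44 and 0.971 CPM in MPP2 and 6.40, 3.68 and 2.52 CPM in MPP4. Of the list, Hba-a1 and Hba-a2, Hbb-b1 and Hbb-bs, and Hbb-b2 and Hbb-bt carried identical values and count as 3 genes, not 6.

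B lineage genes held all 3 genes called higher in MPP4. Of 15 tested, 3 were called higher in MPP4 beside 0.0193% of all genes, and 10 were higher in MPP4 at an unadjusted p under 0.05 beside 1.58%. The median log2 fold change was -1.95, and in 12 of 15 genes the MPP4 libraries were all above the MPP2 libraries, beside 10.6% of all genes. Summed over the list, MPP2 was at 348, 321 and 361 CPM and MPP4 at 1488, 1170 and 932 CPM, against 31.4 to 51.3 CPM in HSC.

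Cd79a, a signalling chain of the B cell and pre-B receptors, was at 39.5, 46.3 and 45.9 CPM in MPP2 and at 261, 193 and 166 CPM in MPP4. The MPP2 libraries lay close together and far below MPP4, with a log2 fold change of -2.24 ± 0.30 (SE; edgeR adjusted p = 0.0050). Vpreb1, a surrogate light chain gene, was at 14.2, 13.2 and 11.4 CPM in MPP2 and at 107, 53.7 and 39.1 CPM in MPP4. Its groups were separate, with MPP4 replicate 1 the highest (log2 fold change -2.36 ± 0.45 SE; edgeR adjusted p = 0.043). Mzb1, an endoplasmic reticulum protein of antibody-making cells, was at 30.5, 52.9 and 71.7 CPM in MPP2 and at 181, 241 and 227 CPM in MPP4 (log2 fold change -2.06 ± 0.39 SE; edgeR adjusted p = 0.043). Cd79a had no overlap between any of the 4 WT populations and was lowest in HSC, at 0.551 ± 0.127 CPM (SD, n = 3), with MPP1 at 1.90 ± 0.76 CPM.

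Other genes of the B lineage list had values in the same direction without passing the test. Vpreb3 was at 9.45, 7.0 and 9.07 CPM in MPP2 and 87.3, 37.9 and 33.2 CPM in MPP4 (log2 fold change -2.63; edgeR adjusted p = 0.082). Igll1, another surrogate light chain gene, was at 26.9, 17.4 and 18.8 CPM against 204, 87.0 and 63.0 CPM (-2.49, edgeR adjusted p = 0.23). Ebf1, a B lineage commitment factor, was at 29.1, 11.2 and 14.4 CPM against 140, 72.5 and 24.8 CPM, and its ranges overlapped. Pax5, which fixes B cell identity, stayed low at 0.0463, 0.386 and 0.213 CPM against 1.17, 0.791 and 0.862 CPM. Ms4a1, a surface marker of later B cells, had a log2 fold change of -1.51. In the 6-library fit with the replicate block, 9 of the 15 were called, beside 0.803% of the genes that fit tested. All 9 were higher in MPP4, Vpreb3 (edgeR adjusted p = 0.020) and Igll1 (0.013) among them.

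That paired fit also called genes known from antibody-secreting cells, which were picked here after their values were seen. Which cells in the sorted populations carried them was not tested. Igj, the immunoglobulin joining chain, was at 610, 1673 and 2864 CPM in MPP2 and at 4172, 7682 and 7858 CPM in MPP4, with a paired log2 fold change of -2.14 (edgeR adjusted p = 0.020) where the 24-library fit gave 0.97. Xbp1, Irf4 and Tnfrsf17, which act in plasma cell differentiation, had paired log2 fold changes of -0.93, -1.81 and -2.23 (edgeR adjusted p = 0.026, 0.037 and 0.032). The gate excluded cells with lineage markers, and the labels do not list which markers were in that cocktail.

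Lymphoid priming genes, which act before B and T cell commitment, held no called gene. None of 17 was called by edgeR or DESeq2, 3 were higher in MPP4 at an unadjusted p under 0.05 beside 1.58% of all genes, and the median log2 fold change was -0.54. In 8 of the 17 the MPP4 libraries were all above the MPP2 libraries, beside 10.6% of all genes. Il7r, the interleukin 7 receptor chain, was at 5.63, 8.5 and 5.38 CPM in MPP2 and at 29.9, 28.86 and 14.8 CPM in MPP4 (log2 fold change -1.92 ± 0.56 SE; edgeR adjusted p = 0.59). Ly6d, a surface marker of B-biased lymphoid progenitors, was at 26, 48.2 and 62.2 CPM against 202, 220 and 215 CPM (-2.22 ± 0.73 SE; edgeR adjusted p = 0.71). Both had separate groups and were called by the paired 6-library fit (edgeR adjusted p = 0.032 and 0.012). Dntt, the polymerase that adds bases at antigen receptor joints, was at 627, 610 and 620 CPM in MPP2 and 1525, 978 and 779 CPM in MPP4 (-0.82), so MPP2 itself was above the 7.45 to 52.4 CPM of HSC. The regulators Ikzf1 (0.04), Bcl11a (0.13) and Mef2c (-0.09) had overlapping groups. Of 19 T and NK cell genes, 0 were called by edgeR or DESeq2 and 1, Thy1, had an unadjusted p under 0.05, at a median of -1.28. In 10 of these 19 the groups were separate and higher in MPP4, beside the same 10.6%.

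**Figure D4:**
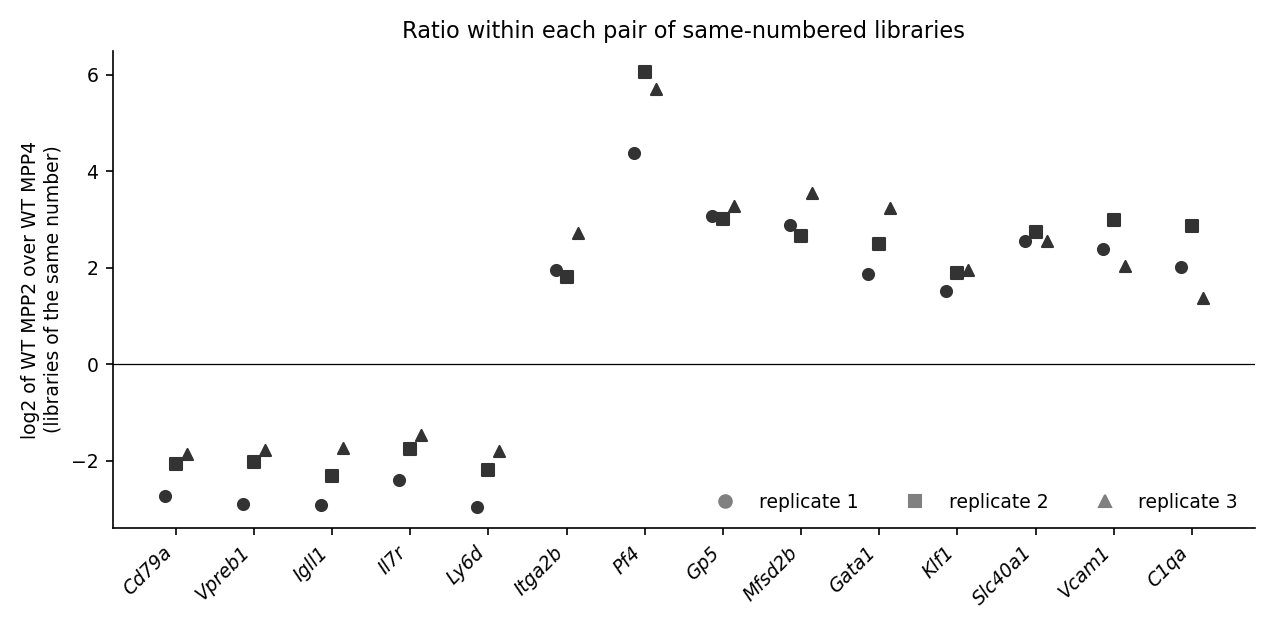
Log2 ratio of WT MPP2 over WT MPP4 within each pair of same-numbered libraries (vertical axis) for 14 genes picked after their values were seen, with the marker shape giving the replicate number. The 5 lymphoid genes on the left are below 0 in all 3 pairs and the 9 others above 0, and Slc40a1 holds ratios of 5.91, 6.68 and 5.88 although its level in MPP2 ran from 49.1 to 945 CPM.

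Promoters of the called genes are shown because what their start regions hold can be read from the reference. The members of each side share a direction by selection, and whether they share a regulator was not tested. RefSeq windows on GRCm38.p6 were found for 7 of the 14 called genes. Of those whose start lies at or within 5 bases of a GENCODE transcript start, 4 are printed, as the 250 bases before the start. Trim47 also met this rule and is not printed. Capitals mark a match to 1 of 4 motifs searched on both strands. These were GATAAG for GATA factors, CAGGAAG for ETS factors, TGTGGTT for RUNX factors and CAGCTG for E-box factors, and no matches overlapped in these windows. The Pf4 window is chr5:90772185-90772434 on the plus strand, Slamf1 is chr1:171766882-171767131 on the plus strand, Mfsd2b is chr12:4874360-4874609 on the minus strand and Vpreb1, from the MPP4 side, is chr16:16869256-16869505 on the minus strand. They read as follows.
Pf4: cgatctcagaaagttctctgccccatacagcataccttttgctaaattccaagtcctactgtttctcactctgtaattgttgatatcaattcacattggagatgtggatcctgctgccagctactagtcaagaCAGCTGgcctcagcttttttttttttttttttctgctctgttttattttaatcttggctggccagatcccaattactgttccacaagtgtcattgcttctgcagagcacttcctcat
Slamf1: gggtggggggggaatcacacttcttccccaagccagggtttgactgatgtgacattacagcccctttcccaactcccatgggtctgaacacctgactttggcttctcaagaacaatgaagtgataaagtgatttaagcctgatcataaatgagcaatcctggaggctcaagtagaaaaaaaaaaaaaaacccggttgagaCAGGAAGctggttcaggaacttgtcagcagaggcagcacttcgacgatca
Mfsd2b: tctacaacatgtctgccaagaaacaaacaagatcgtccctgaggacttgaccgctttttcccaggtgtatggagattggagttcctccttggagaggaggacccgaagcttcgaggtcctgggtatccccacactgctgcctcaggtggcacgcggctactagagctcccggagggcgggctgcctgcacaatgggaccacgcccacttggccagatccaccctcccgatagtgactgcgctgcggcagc
Vpreb1: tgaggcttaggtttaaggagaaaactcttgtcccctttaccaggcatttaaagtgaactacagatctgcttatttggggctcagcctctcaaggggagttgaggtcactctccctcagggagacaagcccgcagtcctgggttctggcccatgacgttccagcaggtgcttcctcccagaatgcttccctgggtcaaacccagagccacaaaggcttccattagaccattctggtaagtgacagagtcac
Pf4 held 1 E-box, starting 117 bases before its start, and Slamf1 held 1 ETS motif, starting 50 bases before its start. Mfsd2b and Vpreb1 held none of the 4 motifs in these windows. GATAAG was in 0 of the 5 windows of genes called higher in MPP2 and in 3 of the 17 windows of the platelet list, those of Clec1b, Gp1ba and Gp9. Over the 14476 windows of tested genes it was in 4.91%, CAGGAAG in 10.5%, TGTGGTT in 3.41% and CAGCTG in 12.5%. Over all 32851 windows of the table the shares were 6.55%, 10.8%, 4.40% and 13%. A match is a description of letters in the window and was set against no binding data.

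Stem cell identity genes were set beside the lineage lists. Of 25, edgeR called none and DESeq2 called 3, beside 0.534% of all genes by DESeq2. At an unadjusted p under 0.05, 10 were higher in MPP2 beside 3.41% of all genes, and the median log2 fold change was 0.70. Tek, the angiopoietin receptor, was at 16.1, 28.4 and 55.2 CPM in MPP2 and at 2.32, 12.6 and 2.98 CPM in MPP4 (log2 fold change 2.47 ± 0.67 SE; edgeR adjusted p = 0.42). Trpc6, a calcium channel gene, was at 46.4, 31.4 and 78.4 CPM against 12.6, 17.8 and 18 CPM (1.69). Hlf (0.05), Mllt3 (-0.07) and Procr (0.27), which mark repopulating stem cells, had overlapping groups. Both populations were below HSC for the summed list, which stood at 1469 to 1942 CPM in MPP2, 1203 to 1529 CPM in MPP4 and 4361 to 5142 CPM in HSC.

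Genes of growth and the cell cycle held no called member. Of 80 tested cytosolic ribosomal protein genes all 80 had a negative log2 fold change, beside 47.4% of all genes, with a median of -0.42 and 73 whose MPP4 libraries were all above MPP2, beside 10.6% of all genes. Their summed level was 21070, 22850 and 19540 CPM in MPP2 and 28800, 25000 and 28810 CPM in MPP4. At an unadjusted p under 0.05 there was 1, Rpl3l, and in the knockout mice the median was 0.17. Nuclear-encoded respiratory chain genes had a median of -0.33, with 37 of 73 separate and higher in MPP4 and 0 at an unadjusted p under 0.05. DNA replication and G1/S genes (median 0.06), mitosis and G2/M genes (-0.06) and MYC targets (-0.07) had no called member and none at an unadjusted p under 0.05. DESeq2 called none of the members of these 5 lists.

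Markers of mature cells varied with the libraries. All 14 macrophage genes had a positive log2 fold change, beside 52.0% of all genes, with a median of 2.24, but 0 were called by edgeR or DESeq2, 1 had an unadjusted p under 0.05 and 0 had separate groups. Their summed level was 6630, 1114 and 310 CPM in MPP2 and 1566, 206 and 148 CPM in MPP4. MPP2 was thus higher in each same-numbered pair, by 4.23-, 5.4- and 2.09-fold, while Marco was at 0 in MPP2 replicate 3 and Mertk at 0 in MPP4 replicate 3. The paired 6-library fit called 7 of the 14, beside 0.803% of the genes it tested, with Vcam1 at a log2 fold change of 2.48 and C1qa at 2.10. The smallest p-value of that fit was that of the iron exporter gene Slc40a1 (2.63, edgeR adjusted p = 0.0015). In the knockout mice the macrophage median was -0.29. The neutrophil list was highest in replicate 3 of both populations (2062 and 1682 CPM, against 101 to 325 CPM in the others). Immediate early genes also followed the replicate number, at 2294, 6923 and 10210 CPM in MPP2 and 2733, 6193 and 15550 CPM in MPP4. The part of these markers in the 14 calls was not tested, and fits with the replicate number as a block are given below. Without MPP2 replicate 1, whose summed macrophage list was the highest, 8 genes were called, all of them among the 14. That fit still held MPP2 replicate 2, at 1114 CPM for the macrophage list against 206 CPM in MPP4 replicate 2.

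The calls rested on few libraries. Only Cd79a passed in each of the 6 fits that left 1 library out (edgeR adjusted p = 0.0077 to 0.049). It was the 1 gene called without MPP4 replicate 1, and likewise without MPP4 replicate 2. Counts were 8 without MPP2 replicate 1, 12 without MPP2 replicate 2, 4 without MPP2 replicate 3 and 6 without MPP4 replicate 3. Samd14, Mfsd2b and Pf4 lost the call without MPP4 replicate 1 or 2, and Slamf1 also without MPP2 replicate 3. Gp5, Vwf and Cttn kept it without MPP2 replicate 1 or 2 and lost it without any of the other 4 libraries. Tgm2, Gas2l1 and 8-Sep kept it without MPP2 replicate 2 alone, Vpreb1 without MPP4 replicate 3 alone, and Trim47 and Mzb1 in none of the 6. With the replicate number as a block in the 24-library fit, 10 genes were called (0.0643%). Cttn (edgeR adjusted p = 0.062), Tgm2 (0.056), Gas2l1 (0.14), Mzb1 (0.084) and 8-Sep (0.050) were no longer called, and Sdpr, a platelet list member, was. The 6-library fit with that block called 112 of 13956 genes, 68 higher in MPP2 and 44 higher in MPP4, and 13 of the 14 were among them. DESeq2 called 83 genes (0.534%), 59 and 24, with all 14 among them, whereas edgeR on the 6 libraries without a block called 1.

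The same contrast in the knockout mice used 6 other libraries and shared none with the WT contrast. Both contrasts were read from the same 24-library fit, with a common estimate of spread for each gene, so their tests were not fully independent. The knockout contrast called 1156 genes, 7.44% of those tested, with 743 higher in MPP2 (4.78%) and 413 higher in MPP4 (2.66%). This count was 668 without knockout MPP2 replicate 1 and 555 without knockout MPP4 replicate 3. All 14 genes called in WT were called there in the same direction, with edgeR adjusted p-values from 4.2e-06 to 0.044. Cd79a was at 61.2, 71.8 and 49.4 CPM in knockout MPP2 and at 648, 368 and 947 CPM in knockout MPP4 (log2 fold change -3.43 ± 0.32 SE). Slamf1 was at 20.7, 32.7 and 44.6 CPM against 1.39, 3.82 and 1.28 CPM (3.91 ± 0.56 SE). Pf4 was at 24.5, 41.6 and 23.2 CPM against 0.875, 0.425 and 0.944 CPM (5.31 ± 0.87 SE). Of the genes called in the knockout, 834 (72.1%) had the same direction in WT, beside 51.6% of all genes, and 210 of these had an unadjusted p under 0.05 in WT.

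**Figure D5:**
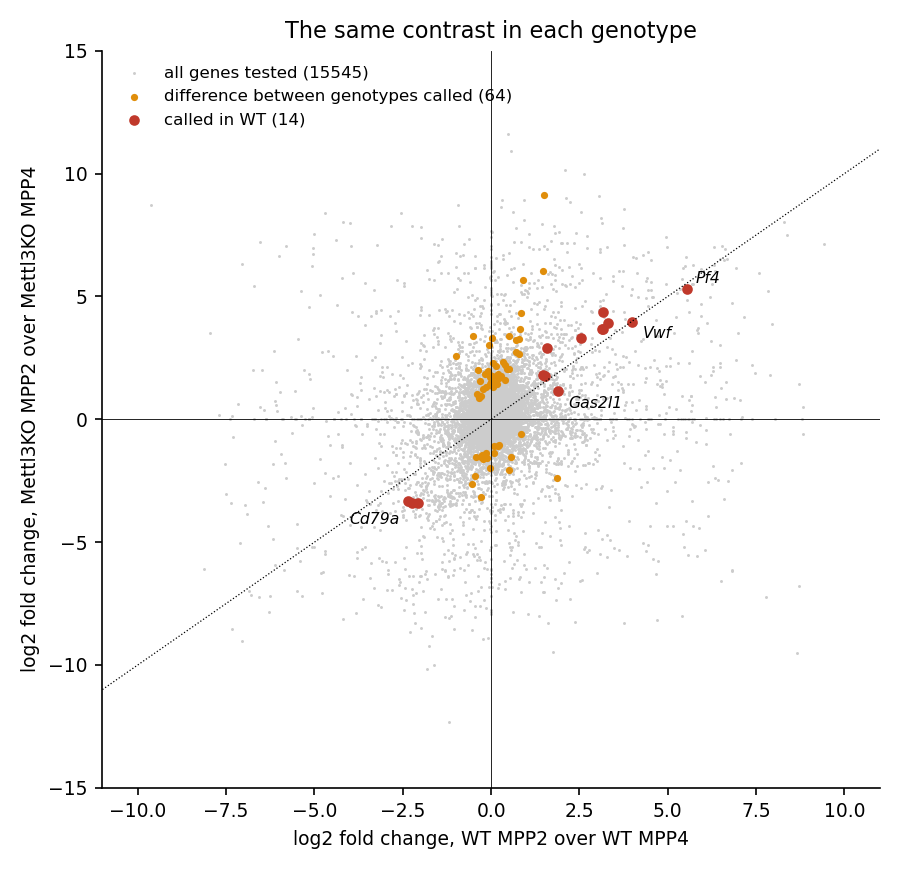
Log2 fold change of MPP2 over MPP4 in WT (horizontal axis) and in Mettl3KO mice (vertical axis) for all 15545 genes tested, with the 14 genes called in WT in red, the 64 genes whose difference was called to differ between genotypes in orange, and equality as a dotted line. All 14 red points lie in the quadrants of equal direction.

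List medians were set side by side in the 2 genotypes, beside 4.78% of all genes called higher in MPP2 and 2.66% called higher in MPP4 in the knockout. Platelet genes had 2.82 in WT and 2.92 in the knockout, where 13 of 23 were called higher in MPP2 and 1, Mmrn1, higher in MPP4. B cell genes had -1.95 and -3.33, with 10 of 15 called higher in MPP4 in the knockout, and stem cell identity genes had 0.70 and 1.84, with 18 of 25 called higher in MPP2. Lymphoid priming genes had -0.54 and -1.70, with 9 of 17 called higher in MPP4 in the knockout. The medians of 4 lists of other blood cells were positive in WT and negative in the knockout: granulocyte and monocyte priming (0.14 and -0.14), mature neutrophil (0.84 and -0.05), macrophage (2.24 and -0.29) and mast cell, basophil and eosinophil genes (0.27 and -0.35). Lists of other kinds changed sign in the same way, among them DNA replication and G1/S genes (0.06 and -0.36), cytokine receptors (0.13 and -0.17) and cholesterol synthesis genes (0.20 and -0.11). A test of the difference between genotypes called 64 genes (0.412% of those tested), with no gene called in WT and no member of the 4 blood cell lists among them. That count ranged from 13 to 108 when single libraries were left out.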

How the data were processed

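SMARTer cDNA from polyA RNA was sequenced as paired 50 bp reads, per the labels' protocols. The submitters' processing notes name TopHat and Bowtie, and the build mm10 and, for a mouse series, GRCh37; which counter, strand setting and annotation were used is not given in the sources used here. The deposited table is named for FPKM but holds whole numbers whose totals differ by library, so the authors' values were used as raw counts, with 0 columns left unused. In it, 27 row names were turned into dates, 4584 rows were 0 throughout and 308 tested genes held only even counts. None of these was called in WT, but Mmrn1, among them, was called in the knockout and in the test between genotypes.

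Counts were fitted with edgeR 4.0.16 (R 4.3.3): filterByExpr by group, TMM, 1 mean for each of 8 groups of 3, glmQLFTest with 16 residual degrees of freedom and Benjamini-Hochberg adjustment. Alternatives used DESeq2 1.42.0 and limma 3.58.1. The code was tested on simulated data. Members and lists were chosen with earlier results of these data known. Named genes were the gate genes and Mettl3, called list members (up to 4 a list), the 10 highest and 10 lowest log2 fold changes among called genes of at least 10 CPM, and up to 6 of the genotype test; other called genes were added. Same-numbered MPP2 and MPP4 libraries deviated together over genes (r = 0.46, 0.19 and 0.26 in WT, and 0.22, 0.15 and 0.17 in the knockout). The numbers were taken as pairs only in the fits with the replicate block and in the ratios of same-numbered libraries. Of these fits, that of only 6 libraries had far fewer than 16 residual degrees of freedom. The fit of all bulk libraries described above held no such block, so its calls and p-values came from unpaired tests. The single-cell samples were not analysed here.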

Additional observations from a re-analysis of the deposited data

Results flagged for a closer look

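The MPP2 minus MPP4 difference was tested between genotypes, knockout minus WT, and 64 genes passed edgeR's quasi-likelihood test at an adjusted p under 0.05 (0.412% of those tested), 45 of them with a higher and 19 with a lower difference in the knockout. The count was 15 without WT MPP2 replicate 1, 38 without WT MPP2 replicate 2, 18 without WT MPP2 replicate 3, 16 without WT MPP4 replicate 2 and 13 without WT MPP4 replicate 3. It was 15 without knockout MPP2 replicate 1, 108 without knockout MPP4 replicate 1 and 16 without knockout MPP4 replicate 3.

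The 6 smallest p-values (edgeR adjusted p = 0.0029 to 0.0037) belonged to genes that were not called in WT. Nfix, a nuclear factor I gene, had a WT log2 fold change of -0.30 and differed between genotypes by 1.86. Rhbdf1 differed by 3.90, Npdc1 by 3.28, Sorbs3 by 1.72 and Rab38 by 1.62, from WT log2 fold changes of -0.52, 0.03, 0.03 and 0.21. Esam, an adhesion molecule of stem cells and endothelium, was at 26.6, 29.6 and 37.8 CPM in WT MPP2 and 22.3, 16.8 and 15.8 CPM in WT MPP4 and differed by 2.49.

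Mmrn1, which encodes a platelet granule protein, went the opposite way in the 2 genotypes. It was at 28.4, 35.1 and 72.6 CPM in WT MPP2 and 12.6, 11.1 and 13.5 CPM in WT MPP4, and at 6.18, 4.47 and 9.98 CPM against 36.7, 30.1 and 39.9 CPM in the knockout, a difference of -4.24. Its counts were even in every library. Among other list members the difference was called for Nfe2 (1.48), a megakaryocyte transcription factor, for Mycn (1.87) and Tie1 (2.04) of the stem cell list, and for the receptor gene Il11ra1 (1.46). It was also called for the integrin Itga6 (1.20), for Hoxa10 (1.36) and for Ythdc1 (1.21), a nuclear reader of N6-methyladenosine. In these 7 genes the difference was higher in the knockout.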

How the results depend on the processing

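Each of the 6 libraries held at least 31543765 counts, and which of depth, number of mice and choice of fit limits the calls was not tested. In WT, the 14 calls became 83 with DESeq2, 99 with library quality weights (39 higher in MPP2 and 60 higher in MPP4, 39.4% against 78.6% higher in MPP2), 1 with only the 6 libraries, and 112 with only the 6 libraries and the replicate block (60.7% higher in MPP2), which was added after seeing the data. Leaving out single libraries gave 1 to 12. In the knockout, 1156 became 1805 with DESeq2, 2308 with weights and 555 to 959 without single libraries. For the difference between genotypes, 64 became 444 with DESeq2, 117 with the replicate block, 681 with weights, 260 with only the 12 libraries and 13 to 108 without single libraries. The shares higher in MPP2 were 53.4% with weights, 55.0% with only the 6 libraries and 51.9% with their block in the knockout, against 64.3%. The replicate block in the 24-library fit gave 10 calls in WT, 9 of them among the 14, and 1217 in the knockout, 1060 of them among the 1156. The cause of these changes was not tested. With DESeq2-type or upper quartile factors 13 of the 14 were called (8-Sep at 0.055 and 0.061), and without a filter 15 were, the 14 among them. No called gene reversed its direction.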

Other observations

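Members of other lists that the 24-library fit did not call in WT are given as values, and they were chosen after their values were seen. Itgb1, the beta chain of the fibronectin receptors, was at 125, 118 and 156 CPM in MPP2 and 85.7, 95.6 and 97.5 CPM in MPP4, and its groups were separate (log2 fold change 0.52). Its partner chain Itga5 was at 27.4, 21.8 and 34.1 CPM against 14.6, 14.3 and 17.7 CPM (0.84). Il2rg, the common cytokine receptor chain, was at 131, 170 and 129 CPM in MPP2 and 199, 242 and 202 CPM in MPP4 (-0.58).

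Cdkn1a, a CDK inhibitor induced by p53, was at 30.9, 30.9 and 26.7 CPM in MPP2 and 92.9, 48.9 and 60.9 CPM in MPP4 (log2 fold change -1.20, edgeR adjusted p = 0.50). Id3, an inhibitor of E proteins, was at 4.24, 3.26 and 7.29 CPM in MPP2 and 25.4, 11.1 and 15.1 CPM in MPP4 (-1.80). Slamf7, a receptor of plasma and NK cells, was at 13.4, 19.9 and 25.6 CPM against 44.9, 66.2 and 72.6 CPM (-1.64; edgeR adjusted p = 0.0080 in the 6-library fit with the replicate block), while Slamf1, of the same family, was higher in MPP2. Gimap4, a lymphocyte GTPase gene, was at 25.9, 34.0 and 20.8 CPM in MPP2 and 61.3, 131 and 55.7 CPM in MPP4 (-1.62, edgeR adjusted p = 0.21, and 0.023 in that paired fit), and all 8 Gimap genes tested had a negative log2 fold change, beside 47.4% of all genes. Cd74, the MHC class II invariant chain, was at 1860, 2339 and 1680 CPM against 2573, 4114 and 5528 CPM (-1.06), and its groups were separate.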
